A study of Homo sapiens with 12 samples.

Results

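The aminoacyl-tRNA synthetases join each amino acid to its transfer RNA, and 35 of their genes were followed here through treatment with an inhibitor of phosphatidylserine synthesis. The members were taken by gene name (or by the older symbol without the final 1) from a list of 19 enzymes that act in the cytosol and 16 that act in mitochondria, whose symbols end in 2. All 35 were found under the same Ensembl identifiers in both count tables, among 30984 genes listed for KYSE30 and 78691 for the second line, and all 35 passed the filter on low counts. The aspartyl-tRNA synthetases are not among them and were not analysed here.

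Poly-A RNA was sequenced from 12 cultures, 3 in each of 4 groups. KYSE30 cells, an esophageal squamous cell carcinoma line, received 100 nM PTDSS1i or its vehicle, DMSO, for 48 h. Cells labelled U138MG, a glioblastoma line, were treated in the same way, at the same dose and for the same time. The labels give all 4 groups as wild type and give each line a batch of its own, so batch and line cannot be told apart. PTDSS1i is an inhibitor of PTDSS1, an enzyme that makes phosphatidylserine from phosphatidylcholine, and the study asked how transcription responds to it. Each is a single established cell line.

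Each cell keeps separate sets of synthetases for the cytosol, where nuclear messages are translated, and for mitochondria, where the few messages of the mitochondrial genome are translated. Both sets are encoded in the nucleus. A small number of genes, GARS1 and KARS1 among them, make the enzymes of both compartments, and several cytosolic enzymes sit together in the multisynthetase complex, held by the scaffold proteins AIMP1, AIMP2 and EEF1E1. Uncharged tRNA activates the kinase GCN2, and GCN2, like the endoplasmic reticulum kinase PERK, leads to translation of the transcription factor ATF4, for which several cytosolic synthetase genes are known targets.

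The libraries held between 18800932 and 26514658 counts. The libraries labelled U138MG carried several squamous markers at high levels, and some defining glial and mesenchymal markers were at or near 0. In DMSO, KRT5, a keratin of squamous epithelium, stood at 1380 to 1544 CPM of the library total, VIM, a mesenchymal filament gene, at 0.157 to 0.281, and S100B and OLIG2 at 0. Both lists were mixed, since the glial marker GFAP stood at 2.16 to 2.51 CPM, the matrix genes SPARC at 699 to 725, FN1 at 71.8 to 80.2 and COL1A1 at 53.0 to 55.8, and the squamous keratins KRT14 and KRT6A at 0.0937 to 0.366 and 0.366 to 0.583. The 8 squamous markers summed to 6921 to 7716 CPM and the 9 glial and mesenchymal markers to 844 to 876, with 6 of the 8 and 5 of the 9 at a mean of at least 1 CPM. After PTDSS1i these sums were 1773 to 1896 and 453 to 467. KRT15 was the largest part of the squamous sum in DMSO, at 4500 to 5145 CPM, and stood at 409 to 484 after PTDSS1i. KRT5, TP63 and CDH1 were lower too, while EPCAM (242 to 257.4 and 341.8 to 354.8), DSG3 and KRT6A were higher. SPARC, the largest part of the other sum, stood at 339 to 358 after PTDSS1i, and FN1 was lower, NES was higher and COL1A1 overlapped between treatments. In KYSE30 the squamous sum was 921 to 988 CPM in DMSO and 1169 to 1201 after PTDSS1i, and the glial and mesenchymal sum was 98.5 to 149 and 86.5 to 90.8. TP63 went against the squamous sum, at 89.65 to 103.1 CPM in DMSO and 62.8 to 70.98 after PTDSS1i. VIM (3.085 to 4.939 and 21.86 to 27.07) and COL1A1 went against the glial and mesenchymal sum. FN1 (74.14 to 122.1 and 35.51 to 40.15) and SPARC went with it. The squamous markers were mixed in KYSE30 too, with 6 of the 8 at a mean of at least 1 CPM in DMSO. There KRT5 stood at 0 to 0.133 CPM, KRT14 at 0.0886 to 0.532 and KRT15 at 38.6 to 42.8. The largest parts of the squamous sum in DMSO there were CDH1 (493 to 542) and EPCAM (270.7 to 289.5). The second line is therefore called the libraries labelled U138MG, and the part of these marker shifts in the results was not tested. In bulk RNA, fewer cells of a type and less RNA per cell cannot be told apart.

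Levels before treatment were compared between genes per kilobase of exon, as normalized CPM (counts relative to library size) divided by the length of the gene's joined exons in GENCODE v29 (RPKM). In KYSE30 the cytosolic members had a median of 28.7 RPKM in DMSO, from 4.44 for CARS1 to 53.9 for TARS1. The mitochondrial members had a median of 7.10 RPKM, from 0.122 for VARS2 to 55.1 for IARS2. VARS2 shares 1858 of its 8448 exon bases with another gene, GTF2H4, and the part of this overlap in its low level was not tested. The medians in the libraries labelled U138MG were 23.1 and 7.55 RPKM, with CARS1 lowest (2.82) and AARS1 highest (51.7) among the cytosolic members, and CARS2 lowest (2.41) and IARS2 highest (58.2) among the mitochondrial ones. IARS2 stood apart from its class in both lines, above the highest cytosolic member. The 2 tables list different gene sets, so levels were not compared between the lines.

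Nearly the whole cytosolic set rose after PTDSS1i in the libraries labelled U138MG. Of its 19 members, 17 were called higher and 2 lower at an edgeR adjusted p under 0.05, where 33.9% of all 17666 tested genes were called higher and 33.6% lower. The median log2 fold change of the 19 was 0.61, against -0.026 over all tested genes. For the 17 that rose, each PTDSS1i library lay above each DMSO library, as it did for 35.5% of all tested genes, and for the 2 that fell each PTDSS1i library lay below, as for 35.9%. A log2 fold change above 1 was reached by 7 members, those for tryptophan, methionine, glycine, alanine, cysteine, tyrosine and isoleucine, where 8.19% of all genes were called higher past that size. The other 10 that rose lay between 0.17 (FARSA) and 0.68 (NARS1), with NARS1, SARS1, EPRS1, TARS1 and RARS1 at the top of that range.

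**Figure D1:**
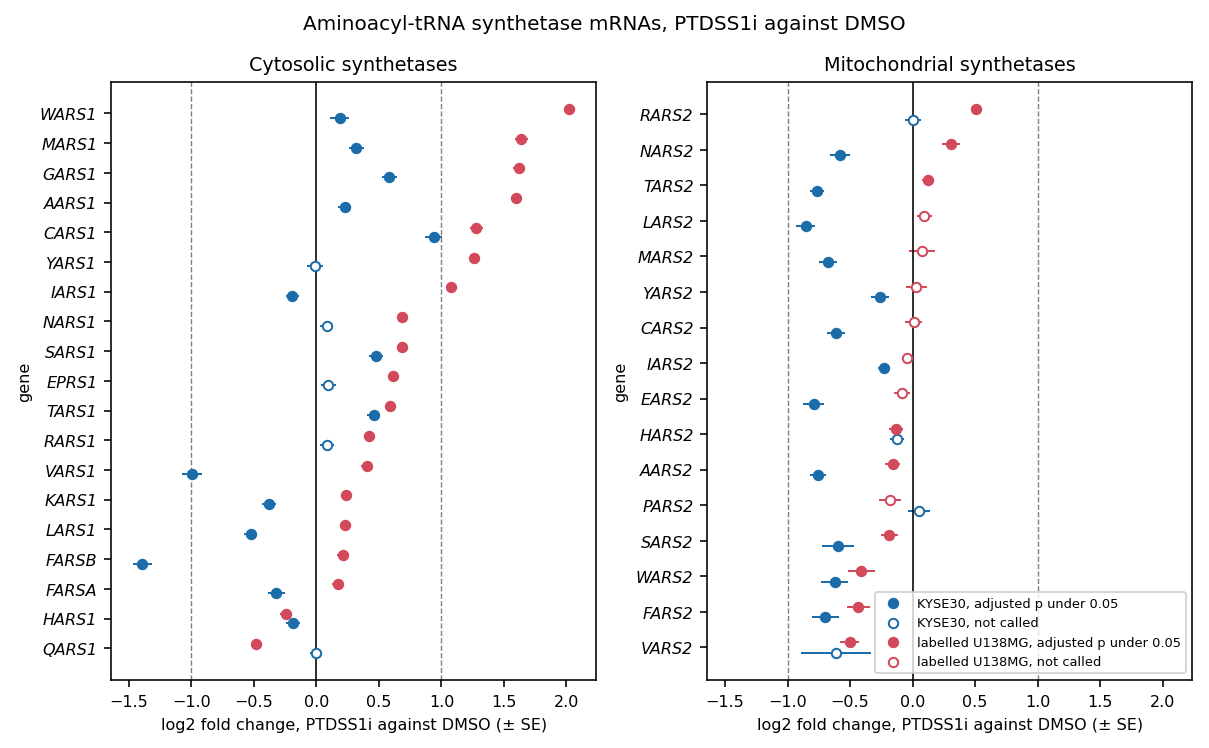
Log2 fold change of each of the 35 synthetase mRNAs after PTDSS1i against DMSO (points, with bars for the standard error), for the 19 cytosolic members on the left and the 16 mitochondrial members on the right, blue for KYSE30 and red for the libraries labelled U138MG. Filled points have an edgeR adjusted p under 0.05, and the dashed lines mark a log2 fold change of 1 in either direction. The red points of the cytosolic members reach 2.02 for WARS1, while those of the mitochondrial members stay between -0.50 and 0.51. Blue points of the mitochondrial members lie mostly to the left of 0.

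WARS1, the tryptophanyl enzyme, rose most. It stood at 85.3, 77.7 and 87.5 normalized CPM in the DMSO libraries and 333, 338 and 345 in the PTDSS1i libraries, without overlap (log2 fold change 2.02, SE 0.040, edgeR adjusted p = 9.06e-26). MARS1, which supplies methionyl-tRNA for initiation as well as elongation, stood at 102, 89.9 and 107 normalized CPM in the DMSO libraries and 310.2, 314 and 306 in the PTDSS1i libraries. The rise of MARS1 was about as large as those of GARS1 and AARS1 (log2 fold change 1.64, SE 0.050, edgeR adjusted p = 1.98e-13). GARS1, the glycyl enzyme of both compartments, was at 72.8, 68.9 and 78.5 normalized CPM in the DMSO libraries and 224, 223 and 228 in the PTDSS1i libraries (log2 fold change 1.62, SE 0.041, edgeR adjusted p = 2.41e-23). AARS1, the alanyl enzyme, had the highest level per length of the cytosolic members in DMSO (51.7 RPKM) and of all 35 members after PTDSS1i (157 RPKM) in this line. Its values were 231, 216 and 250.4 normalized CPM in the DMSO libraries and 695, 699.6 and 721 in the PTDSS1i libraries (log2 fold change 1.60, SE 0.043, edgeR adjusted p = 2.96e-17).

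CARS1, YARS1 and IARS1 completed the group past a log2 fold change of 1. CARS1, the cysteinyl enzyme, was at 27.9, 27.6 and 29.4 normalized CPM in the DMSO libraries and 69.8, 69.1 and 67.0 in the PTDSS1i libraries (log2 fold change 1.28, SE 0.052, edgeR adjusted p = 1.19e-18). YARS1, the tyrosyl enzyme, was at 74.8, 71.7 and 80.7 normalized CPM in the DMSO libraries and 178, 183 and 184 in the PTDSS1i libraries (log2 fold change 1.26, SE 0.041, edgeR adjusted p = 8.02e-21). For IARS1, the isoleucyl enzyme of the multisynthetase complex, the values were 186, 169 and 194 normalized CPM in the DMSO libraries and 376, 393 and 391 in the PTDSS1i libraries (log2 fold change 1.08, SE 0.042, edgeR adjusted p = 1.06e-15). In none of these genes did a DMSO library come near a PTDSS1i library. The smallest rises in this line were those of FARSA and FARSB, which encode the alpha and beta subunits of cytosolic phenylalanyl-tRNA synthetase, at 0.17 and 0.21, and both calls were lost with library size alone as the scaling (0.023 and 0.063) and with upper-quartile scaling (0.024 and 0.065).

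Only QARS1 and HARS1 fell among the cytosolic members of these libraries. QARS1, the glutaminyl enzyme, was at 188, 185 and 179 normalized CPM in the DMSO libraries and 132, 129 and 132 in the PTDSS1i libraries (log2 fold change -0.49, SE 0.036, edgeR adjusted p = 1.04e-12). HARS1, the histidyl enzyme, was at 79.1, 73.2 and 78.1 normalized CPM in the DMSO libraries and 65.2, 66.2 and 62.8 in the PTDSS1i libraries (log2 fold change -0.25, SE 0.045, edgeR adjusted p = 2.36e-05). Neither group of libraries overlapped for either gene.

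**Figure D2:**
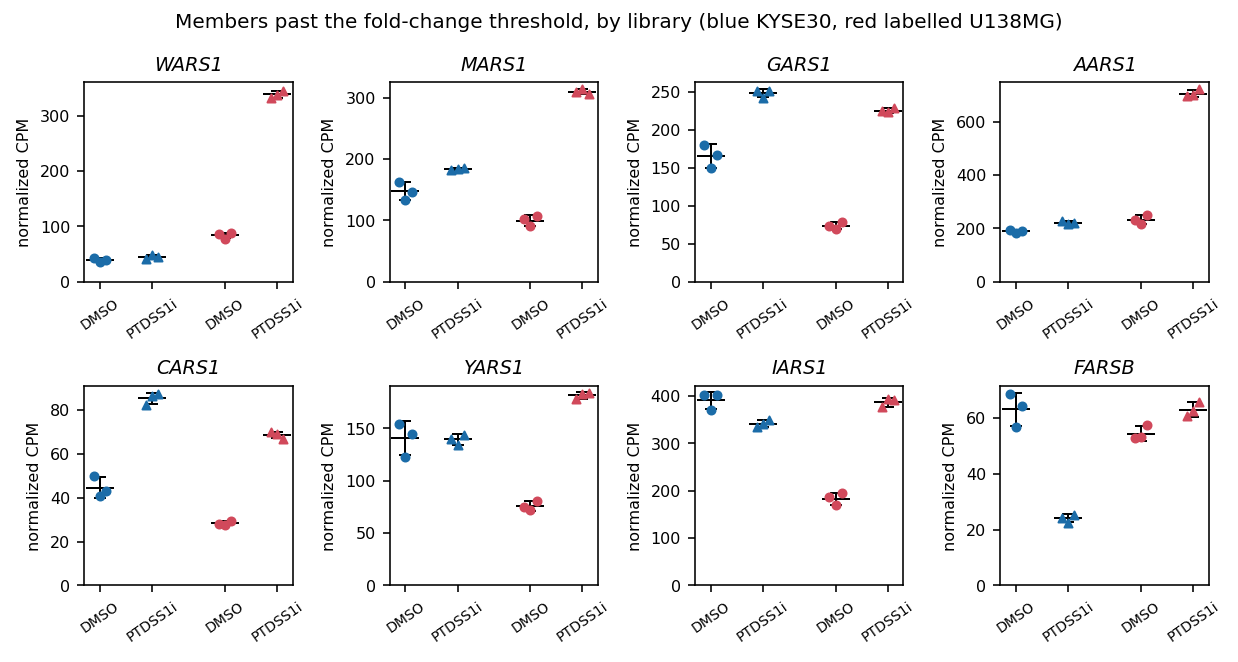
Normalized CPM of the 8 members with a called log2 fold change beyond 1 in at least one line, 1 panel per gene with the vertical axis from 0, in the 3 DMSO libraries (circles) and 3 PTDSS1i libraries (triangles) of KYSE30 (blue) and of the libraries labelled U138MG (red). Black marks give the mean and SD, and levels are to be read within a line. WARS1 went from 83.5 to 339 CPM in the libraries labelled U138MG and FARSB from 63.2 to 24.1 in KYSE30.

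In KYSE30 the cytosolic set split. Called higher were 7 members (CARS1, GARS1, SARS1, TARS1, MARS1, AARS1 and WARS1), called lower were 7 (FARSB, VARS1, LARS1, KARS1, FARSA, IARS1 and HARS1), and EPRS1, NARS1, QARS1, RARS1 and YARS1 were not called. Over all 16389 tested genes, 30.1% were called higher and 32% lower, so the members' shares were close to the background in both directions. The median log2 fold change was 0.081, against -0.025 over all tested genes. With library size alone as the scaling it was -0.024, against -0.13 over all tested genes. Past a log2 fold change of 1, edgeR called 0 members higher, also at an unadjusted p under 0.05 and with DESeq2, and 1 lower, against 6.4% and 7.04% of all genes.

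CARS1 rose most in KYSE30, at 49.9, 40.8 and 42.8 normalized CPM in the DMSO libraries and 82.4, 86.2 and 87.3 in the PTDSS1i libraries (log2 fold change 0.94, SE 0.066, edgeR adjusted p = 8.02e-11). Without DMSO replicate 1 its log2 fold change was 1.03, the single case in which a cytosolic member passed 1 upward in this line. GARS1 was at 180.2, 149 and 166 normalized CPM in the DMSO libraries and 250.4, 241 and 251 in the PTDSS1i libraries (log2 fold change 0.58, SE 0.059, edgeR adjusted p = 2.36e-08). SARS1, the seryl enzyme, which also charges the selenocysteine tRNA, was at 109.8, 98.6 and 103 normalized CPM in the DMSO libraries and 139.7, 142 and 152 in the PTDSS1i libraries (log2 fold change 0.48, SE 0.055, edgeR adjusted p = 1.18e-07). These genes had no overlap between treatments. TARS1, the threonyl enzyme, was at 317, 290.3 and 317 normalized CPM in the DMSO libraries and 420.4, 417 and 433 in the PTDSS1i libraries (log2 fold change 0.46, SE 0.052, edgeR adjusted p = 1.06e-07). The remaining rises were smaller. MARS1 was at 162, 133 and 147 normalized CPM in the DMSO libraries and 182, 184 and 185 in the PTDSS1i libraries (log2 fold change 0.32, SE 0.060, edgeR adjusted p = 9.27e-05), and AARS1 at 192, 182 and 191 normalized CPM in the DMSO libraries and 226, 214 and 220.02 in the PTDSS1i libraries (log2 fold change 0.23, SE 0.050, edgeR adjusted p = 4.78e-04).

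WARS1, the member that rose most in the other line, was the least certain of the 7. It stood at 41.8, 36.0 and 39.1 normalized CPM in the DMSO libraries and 40.04, 48.5 and 44.6 in the PTDSS1i libraries, so that PTDSS1i replicate 1 fell inside the DMSO range (log2 fold change 0.19, SE 0.073, edgeR adjusted p = 0.0328). Its call was lost without DMSO replicate 2 (0.13), DMSO replicate 3 (0.19), PTDSS1i replicate 2 (0.12) or PTDSS1i replicate 3 (0.19), and with library size alone (0.082) or upper-quartile scaling (0.16).

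FARSB fell most of all members in KYSE30. It was at 68.5, 56.8 and 64.3 normalized CPM in the DMSO libraries and 24.3, 22.5 and 25.4 in the PTDSS1i libraries (log2 fold change -1.39, SE 0.073, edgeR adjusted p = 4.66e-13), a 2.62-fold lower level. FARSA, the partner subunit, was at 112, 91.2 and 92.4 normalized CPM in the DMSO libraries and 82.2, 79.6 and 75.2 in the PTDSS1i libraries (log2 fold change -0.32, SE 0.071, edgeR adjusted p = 7.77e-04). The 2 subunits of 1 enzyme thus fell by different amounts in KYSE30, while in the libraries labelled U138MG FARSA was at 58.2, 55.3 and 55.4 normalized CPM in the DMSO libraries and 62.0, 63.1 and 64.7 in the PTDSS1i libraries and FARSB at 52.8, 53.0 and 57.4 normalized CPM in the DMSO libraries and 60.6, 62.4 and 65.8 in the PTDSS1i libraries. VARS1, the valyl enzyme, was at 195, 150.0 and 161 normalized CPM in the DMSO libraries and 84.7, 85.0 and 84.5 in the PTDSS1i libraries (log2 fold change -0.99, SE 0.081, edgeR adjusted p = 1.93e-07), and DMSO replicate 1 was the highest of its group. Without DMSO replicate 2 or 3 VARS1 also passed a fall of 1 (-1.08 and -1.03). LARS1, the leucyl enzyme, which also serves as a leucine sensor for mTORC1, was at 167, 162 and 179 normalized CPM in the DMSO libraries and 119.98, 116 and 116 in the PTDSS1i libraries (log2 fold change -0.52, SE 0.052, edgeR adjusted p = 1.38e-08). In all 4 genes the treatments did not overlap.

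KARS1, the lysyl enzyme of both compartments, was at 186, 169 and 191 normalized CPM in the DMSO libraries and 143, 134 and 143 in the PTDSS1i libraries (log2 fold change -0.38, SE 0.055, edgeR adjusted p = 3.91e-06). IARS1 was at 401, 369 and 401 normalized CPM in the DMSO libraries and 334, 340.4 and 350.2 in the PTDSS1i libraries (log2 fold change -0.19, SE 0.052, edgeR adjusted p = 0.00274). HARS1 was at 106, 98.3 and 104 normalized CPM in the DMSO libraries and 87.2, 89.4 and 94.7 in the PTDSS1i libraries (log2 fold change -0.19, SE 0.054, edgeR adjusted p = 0.00507). All 3 fell without overlap, and HARS1 was the only cytosolic member called lower in both lines. The 5 members that were not called lay between -0.012 (YARS1) and 0.096 (EPRS1).

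The mitochondrial set fell in KYSE30. Of 16 members, 12 were called lower and 4 (HARS2, PARS2, RARS2 and VARS2) were not called, against 32% of all genes called lower. DESeq2 also called 12 lower. With edgeR 0 were called higher, 0 at an unadjusted p under 0.05, and 0 with DESeq2. The median log2 fold change was -0.61, from -0.86 for LARS2 to 0.052 for PARS2, and it was -0.26 over the 7 members whose exons overlap no other gene (5 called lower). By size, 0 members passed a fall of 1 by edgeR or DESeq2. In 14 of the 16, each PTDSS1i library lay below each DMSO library, as in 34.2% of all tested genes.

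LARS2, the mitochondrial leucyl enzyme, was at 26.2, 26.1 and 24.9 normalized CPM in the DMSO libraries and 13.9, 14.7 and 14.1 in the PTDSS1i libraries (log2 fold change -0.86, SE 0.075, edgeR adjusted p = 2.31e-09). EARS2, the mitochondrial glutamyl enzyme, was at 50.045, 38.8 and 40.5 normalized CPM in the DMSO libraries and 24.3, 25.5 and 24.9 in the PTDSS1i libraries (log2 fold change -0.79, SE 0.083, edgeR adjusted p = 8.20e-08). TARS2, for threonine, was at 79.9, 75.0 and 73.1 normalized CPM in the DMSO libraries and 45.1, 44.1 and 44.7 in the PTDSS1i libraries (log2 fold change -0.77, SE 0.057, edgeR adjusted p = 1.31e-10). These 3 fell most, and in each the treatments were well apart. AARS2, for alanine, was at 36.5, 36.2 and 36.2 normalized CPM in the DMSO libraries and 21.7, 21.7 and 21.0 in the PTDSS1i libraries (log2 fold change -0.76, SE 0.065, edgeR adjusted p = 1.50e-09). MARS2, for methionine, was at 46.8, 39.6 and 43.1 normalized CPM in the DMSO libraries and 28.9, 26.2 and 25.7 in the PTDSS1i libraries (log2 fold change -0.68, SE 0.072, edgeR adjusted p = 4.20e-08). CARS2, for cysteine, was at 25.7, 25.9 and 25.6 normalized CPM in the DMSO libraries and 17.9, 16.2 and 16.4 in the PTDSS1i libraries (log2 fold change -0.61, SE 0.074, edgeR adjusted p = 2.87e-07). These 3 genes fell where the cytosolic enzyme of the same amino acid rose.

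SARS2, for serine, and WARS2, for tryptophan, did the same. SARS2 was at 7.28, 7.41 and 6.63 normalized CPM in the DMSO libraries and 4.33, 4.64 and 5.08 in the PTDSS1i libraries (log2 fold change -0.60, SE 0.13, edgeR adjusted p = 3.05e-04). WARS2 was at 12.3, 11.0 and 13.4 normalized CPM in the DMSO libraries and 7.64, 8.31 and 7.93 in the PTDSS1i libraries (log2 fold change -0.62, SE 0.10, edgeR adjusted p = 2.17e-05). NARS2, for asparagine, fell too, at 21.2, 20.6 and 21.3 normalized CPM in the DMSO libraries and 14.5, 13.6 and 14.1 in the PTDSS1i libraries (log2 fold change -0.58, SE 0.078, edgeR adjusted p = 1.38e-06). FARS2, YARS2 and IARS2 also fell, with log2 fold changes of -0.70, -0.26 and -0.23. IARS2, the most abundant mitochondrial member per length, was thus among those that fell least. Of the 4 that were not called, RARS2 was at 40.7, 38.4 and 41.8 normalized CPM in the DMSO libraries and 39.0, 39.965 and 42.2 in the PTDSS1i libraries and PARS2 at 13.2, 13.7 and 12.8 normalized CPM in the DMSO libraries and 14.1, 13.2 and 13.8 in the PTDSS1i libraries, with the treatments overlapping in both. HARS2 had a log2 fold change of -0.12. VARS2 had one of -0.61 on about 1 normalized CPM, its smallest count in a library being 13, with a standard error of 0.28.

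The mitochondrial set had calls in both directions in the libraries labelled U138MG. Called higher were 3 members (RARS2, NARS2 and TARS2), called lower were 6 (VARS2, FARS2, WARS2, SARS2, AARS2 and HARS2), and 7 were not called. Both shares, 3 and 6 of 16, were below or near the 33.9% and 33.6% of all genes. The median log2 fold change was -0.067, and past 1 in either direction edgeR called 0, also at an unadjusted p under 0.05 and with DESeq2. With library size alone as the scaling, 1 was called higher and 9 lower, and with upper-quartile scaling 2 and 9, with a median of -0.21 in both. Over all 17666 tested genes, 4533 were called higher and 7694 lower with library size alone, and 4545 and 7691 with upper-quartile scaling. The median over all tested genes was -0.17 with both. DESeq2 called 3 members lower in place of 6, and edgeR called 3 members lower without PTDSS1i replicate 2. Over the 7 members whose exons overlap no other gene, 1 was called higher and 1 lower, and the median was 0.030.

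RARS2, the mitochondrial arginyl enzyme, rose most, at 46.4, 47.6 and 46.9 normalized CPM in the DMSO libraries and 66.2, 67.2 and 67.4 in the PTDSS1i libraries (log2 fold change 0.51, SE 0.046, edgeR adjusted p = 9.83e-11). NARS2 was at 24.7, 22.6 and 23.6 normalized CPM in the DMSO libraries and 26.3, 31.0 and 30.3 in the PTDSS1i libraries (log2 fold change 0.31, SE 0.072, edgeR adjusted p = 4.94e-04). TARS2 was at 73.5, 74.5 and 77.4 normalized CPM in the DMSO libraries and 78.5, 83.7 and 83.1 in the PTDSS1i libraries (log2 fold change 0.12, SE 0.043, edgeR adjusted p = 0.0149). The rise of RARS2 was the clearest of the 3, since the call of NARS2 was lost with library size alone (0.16), TARS2 turned to -0.025 with library size alone and -0.024 with upper-quartile scaling, and the call of TARS2 was lost without DMSO replicate 1 (0.11).

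VARS2, the mitochondrial valyl enzyme, was at 28.2, 31.6 and 28.5 normalized CPM in the DMSO libraries and 22.6, 19.5 and 20.2 in the PTDSS1i libraries (log2 fold change -0.50, SE 0.074, edgeR adjusted p = 8.72e-07). FARS2, for phenylalanine, was at 15.1, 17.5 and 16.2 normalized CPM in the DMSO libraries and 11.0, 12.1 and 13.0 in the PTDSS1i libraries (log2 fold change -0.44, SE 0.092, edgeR adjusted p = 1.47e-04). WARS2 was at 10.8, 13.3 and 11.3 normalized CPM in the DMSO libraries and 9.74, 7.96 and 8.94 in the PTDSS1i libraries (log2 fold change -0.41, SE 0.11, edgeR adjusted p = 0.00184). These 3 falls did not overlap between treatments. SARS2 was at 25.7, 26.1 and 26.0 normalized CPM in the DMSO libraries and 24.0, 22.2 and 22.3 in the PTDSS1i libraries (log2 fold change -0.18, SE 0.069, edgeR adjusted p = 0.0197), and AARS2 at 33.1, 33.7 and 35.1 normalized CPM in the DMSO libraries and 30.3, 30.015 and 31.1 in the PTDSS1i libraries (log2 fold change -0.16, SE 0.060, edgeR adjusted p = 0.0215). The falls of SARS2 and AARS2 were small, as was that of HARS2 (-0.13), and these calls were marginal. All were lost with DESeq2 and with no filter on low counts, and also on omission of any of several libraries. The call of AARS2 was lost without DMSO replicate 3 (-0.13) or PTDSS1i replicate 1 (-0.14) or 2 (-0.13), that of HARS2 without DMSO replicate 3 (-0.10) or PTDSS1i replicate 1 (-0.13) or 2 (-0.093), and that of SARS2 without PTDSS1i replicate 2 (-0.15) or 3 (-0.16).

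Summed over all members of a class with the main scaling (TMM), the lines differed in which class moved. In KYSE30 the 19 cytosolic members summed to 3088, 2736 and 2979 normalized CPM in DMSO and 3007, 2972 and 3072 after PTDSS1i, with overlap, and the 16 mitochondrial members to 684, 646 and 667 in DMSO and 507, 494 and 511 after PTDSS1i, without overlap. Cytosolic sums in the libraries labelled U138MG were 2339, 2239 and 2402 in DMSO and 4126, 4159 and 4243 after PTDSS1i, without overlap. Their mitochondrial sums were 681, 679.8 and 692 in DMSO and 676, 679 and 687 after PTDSS1i, with overlap. The ratio of the cytosolic to the mitochondrial sum went from 4.41 ± 0.147 to 5.99 ± 0.0482 in KYSE30 and from 3.401 ± 0.0944 to 6.13 ± 0.0361 in the libraries labelled U138MG (SD, n = 3). In both lines the cytosolic share of synthetase mRNA was thus larger in each PTDSS1i library than in each DMSO library. With TMM scaling this came through lower mitochondrial members in KYSE30 and higher cytosolic members in the other line. The ratio within a library does not depend on the scaling, but the sums do. Overlap of the sums under other scalings was not determined. With library size alone the mitochondrial median log2 fold change in the libraries labelled U138MG was -0.21, against -0.17 over all tested genes.

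**Figure D3:**
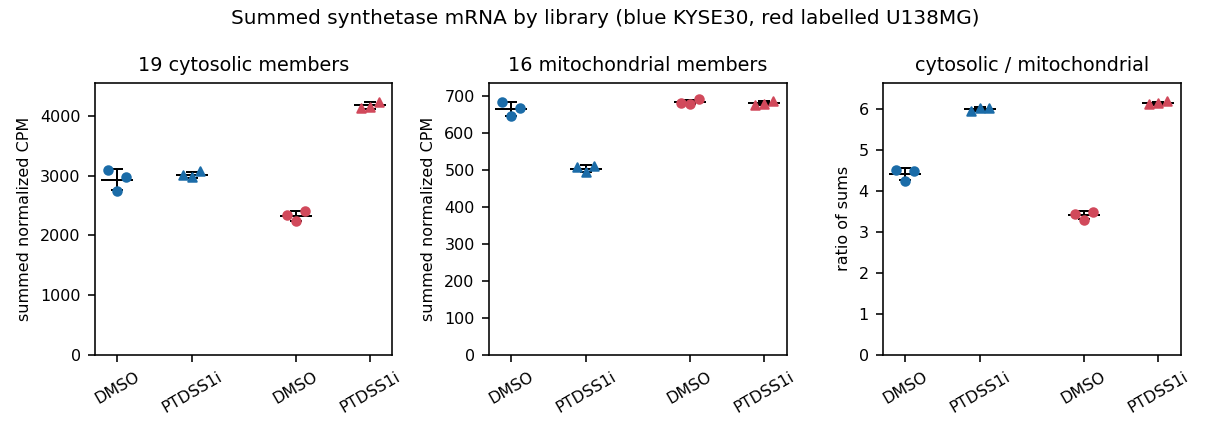
Summed normalized CPM of the 19 cytosolic members, of the 16 mitochondrial members and the ratio of the sums, each point a library (circles DMSO, triangles PTDSS1i, blue KYSE30, red labelled U138MG), with the mean and SD of 3 in black and vertical axes from 0. In KYSE30 the ratio is 4.24 to 4.51 in the DMSO libraries and 5.93 to 6.01 in the PTDSS1i libraries. In the libraries labelled U138MG it is 3.29 to 3.47 and 6.10 to 6.17. Levels and ratios are to be read within a line.

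Enzymes for the same amino acid could be set side by side in 15 pairs covering 14 amino acids, FARS2 being paired with both cytosolic subunits. The log2 fold change of the cytosolic enzyme was above that of the mitochondrial one in 12 pairs in KYSE30 (median difference 0.38, from -0.69 for FARSB and FARS2 to 1.55 for CARS1 and CARS2) and in 13 pairs in the libraries labelled U138MG (median difference 0.87, from -0.11 for HARS1 and HARS2 to 2.43 for WARS1 and WARS2). The ratio of the pair was higher in each PTDSS1i library than in each DMSO library for 11 pairs in KYSE30 and for 13 in the other line. The share of other gene pairs with such ratios was not determined, so these pair counts have no background. Of single genes, 32.1% lay higher in each PTDSS1i library and 34.2% lower in KYSE30, and 35.5% and 35.9% in the other line. The ratio of CARS1 to CARS2 was 1.95, 1.58 and 1.67 in the KYSE30 DMSO libraries and 4.61, 5.33 and 5.33 after PTDSS1i. That of WARS1 to WARS2 was 7.91, 5.85 and 7.76 in the DMSO libraries labelled U138MG and 34.2, 42.4 and 38.6 after PTDSS1i. The cytosolic enzyme was called higher and the mitochondrial one lower for alanine, cysteine, methionine, serine, threonine and tryptophan in KYSE30, and for alanine, phenylalanine, serine, tryptophan and valine in the libraries labelled U138MG. Some of these calls were lost under alternatives, that of WARS1 in KYSE30 and those of FARSA, FARSB, AARS2 and SARS2 in the other line.

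The response of single members differed between the lines when that difference was itself tested. The interaction of line and treatment, fitted over 18405 genes listed in both tables, was called for 17 of 19 cytosolic members (16 more positive in the libraries labelled U138MG, 1 more negative) and for 10 of 16 mitochondrial members (all 10 more positive), against 49.9% of all genes (25.5% more positive, 24.4% more negative). The largest was that of WARS1, 1.80 (SE 0.087, edgeR adjusted p = 1.70e-15) on the log2 scale. FARSB followed with 1.56 (SE 0.093, edgeR adjusted p = 6.13e-15), and VARS1 with 1.35 (SE 0.11, edgeR adjusted p = 1.11e-07). Among the mitochondrial members LARS2 had the largest, 0.91 (SE 0.097, edgeR adjusted p = 2.21e-09), and TARS2 and NARS2 came next with 0.85 and 0.85. QARS1 was the single member called with a more negative change, -0.52 (SE 0.061, edgeR adjusted p = 1.23e-08). The differences of HARS1 and TARS1 were not called, at -0.10 (SE 0.071, edgeR adjusted p = 0.255) and 0.093 (SE 0.062, edgeR adjusted p = 0.225).

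Members called in both lines fell into 3 kinds. AARS1, CARS1, GARS1, MARS1, SARS1, TARS1 and WARS1 were higher in both. HARS1, AARS2, FARS2, SARS2 and WARS2 were lower in both. FARSA, FARSB, IARS1, KARS1, LARS1, VARS1, NARS2 and TARS2 were lower in KYSE30 and higher in the libraries labelled U138MG, and no member was called the other way round. The share of all genes with each pair of calls was not determined, so these groups have no background of their own. In single lines, 30.1% of all tested genes were called higher and 32% lower in KYSE30. The shares in the libraries labelled U138MG were 33.9% and 33.6%. VARS1 in the libraries labelled U138MG was at 65.9, 58.8 and 63.3 normalized CPM in the DMSO libraries and 85.2, 79.5 and 83.3 in the PTDSS1i libraries and LARS1 at 208, 200.01 and 211 normalized CPM in the DMSO libraries and 239.9, 239.9 and 247 in the PTDSS1i libraries. KARS1 there was at 181, 182 and 180.4 normalized CPM in the DMSO libraries and 209, 214 and 216 in the PTDSS1i libraries. Each of these 3 genes had no overlap between treatments in either line. Levels of SARS1 and TARS1 in that line were 82.5, 83.2 and 87.6 normalized CPM in the DMSO libraries and 133, 133 and 141 in the PTDSS1i libraries and 247, 242 and 248 normalized CPM in the DMSO libraries and 369, 366 and 376 in the PTDSS1i libraries, respectively.

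**Figure D4:**
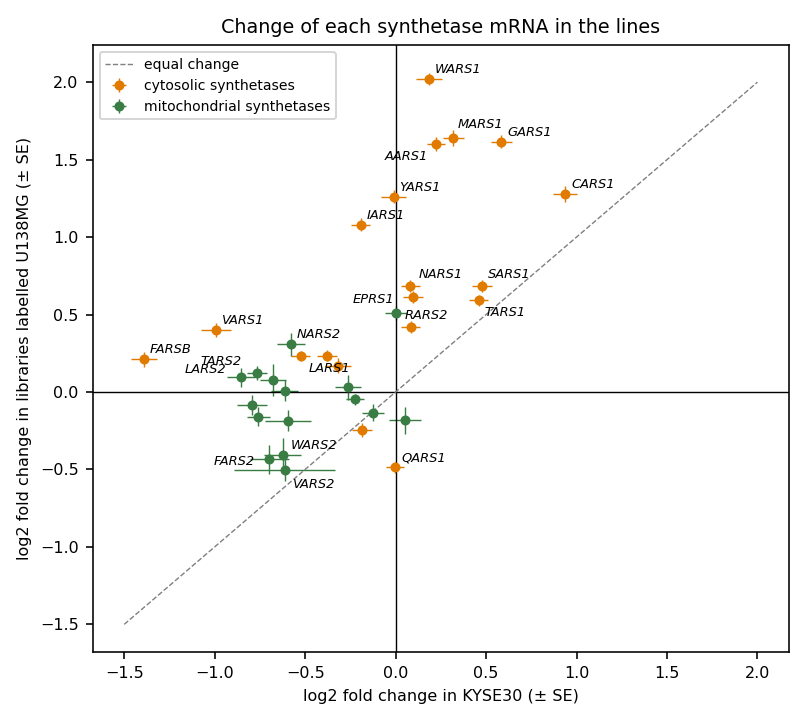
Log2 fold change after PTDSS1i in KYSE30 (horizontal axis) against that in the libraries labelled U138MG (vertical axis) for the 19 cytosolic (orange) and 16 mitochondrial (green) members, with standard errors as bars and a dashed line of equal change. Most orange points lie above the dashed line, up to WARS1 at 0.19 and 2.02, FARSB and VARS1 lie at the upper left, and QARS1 lies below the line at -0.0023 and -0.49.

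The promoters of all members with a promoter window were next searched for short stretches of letters. The C/EBP-ATF response element, which ATF4 and its partners are known to bind, was searched on both strands as TGATGNAA in windows from 250 bases before to 50 bases after RefSeq start sites (build GRCh38.p14), N being any base. A window was given for 16 cytosolic members (not LARS1, VARS1 or YARS1) and 14 mitochondrial members (not AARS2 or VARS2). A match was found for 7 of the 16 cytosolic genes (43.8%), 1 of the 14 mitochondrial genes (7.14%) and 4.46% of all 27305 genes with a window. The matches and up to 30 bases on either side are shown because 5 of the 7 cytosolic genes that hold one passed a log2 fold change of 1 in the libraries labelled U138MG. Capitals mark the match, which reads as the reverse complement where it lies on the opposite strand, and each sequence is written 5′ to 3′ on the strand of its gene.
AARS1: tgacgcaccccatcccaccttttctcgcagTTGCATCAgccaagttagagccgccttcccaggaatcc
CARS1: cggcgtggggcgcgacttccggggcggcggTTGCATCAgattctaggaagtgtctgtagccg
GARS1: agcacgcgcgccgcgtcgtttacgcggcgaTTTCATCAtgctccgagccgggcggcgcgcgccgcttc
IARS1: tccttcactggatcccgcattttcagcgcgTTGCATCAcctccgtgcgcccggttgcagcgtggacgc
MARS1: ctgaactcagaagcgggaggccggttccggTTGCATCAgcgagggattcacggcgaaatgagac
NARS1: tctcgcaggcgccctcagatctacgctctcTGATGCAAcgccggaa
TARS1: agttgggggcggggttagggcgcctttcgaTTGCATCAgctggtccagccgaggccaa
YARS2: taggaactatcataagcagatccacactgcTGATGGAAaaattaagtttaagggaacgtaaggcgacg
The stretches lie at chr16:70289656-70289723 on the minus strand (AARS1), chr11:3057394-3057455 on the minus strand (CARS1), chr7:30594815-30594882 on the plus strand (GARS1), chr9:92293673-92293740 on the minus strand (IARS1), chr12:57488034-57488097 on the plus strand (MARS1), chr18:57621807-57621852 on the minus strand (NARS1), chr5:33440937-33440994 on the plus strand (TARS1) and chr12:32756057-32756124 on the minus strand (YARS2). Counting the first transcribed base as 1 and the base before it as -1, the match began at -2 in CARS1, -4 in MARS1, -13 in IARS1, -33 in GARS1, 3 in TARS1, 15 in NARS1, -187 in AARS1 and -197 in YARS2. In 6 of the 7 cytosolic genes it therefore lay within 33 bases of the start site of its window, and in 5 of the 7 it read TTGCATCA on the strand of the gene. CARS1, GARS1 and TARS1 each had another window, at a different start site, without a match.

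The 7 cytosolic genes with a match had a median log2 fold change in the libraries labelled U138MG of 1.28 (from 0.59 for TARS1 to 1.64 for MARS1), and the 9 with a window but no match a median of 0.23 (from -0.49 for QARS1 to 2.02 for WARS1). The corresponding medians in KYSE30 were 0.32 (from -0.19 for IARS1 to 0.94 for CARS1) and -0.0023 (from -1.39 for FARSB to 0.48 for SARS1). WARS1, the member that rose most, held no match in any of its windows, which says only that these letters are absent there. YARS2 was at -0.26 in KYSE30 and 0.030 in the other line. The binding site of NRF1, a factor known for nuclear genes of mitochondrial proteins, was searched as GCGCA followed at once by its reverse complement and was found in MARS2 alone among the 30 members with a window and in 1.52% of all genes with one. ATF4 mRNA was higher in both lines (1.06 in KYSE30, 0.96 in the other, log2). Binding of ATF4 to these matches, and any dependence of the changes on ATF4, was not tested.

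**Figure D5:**
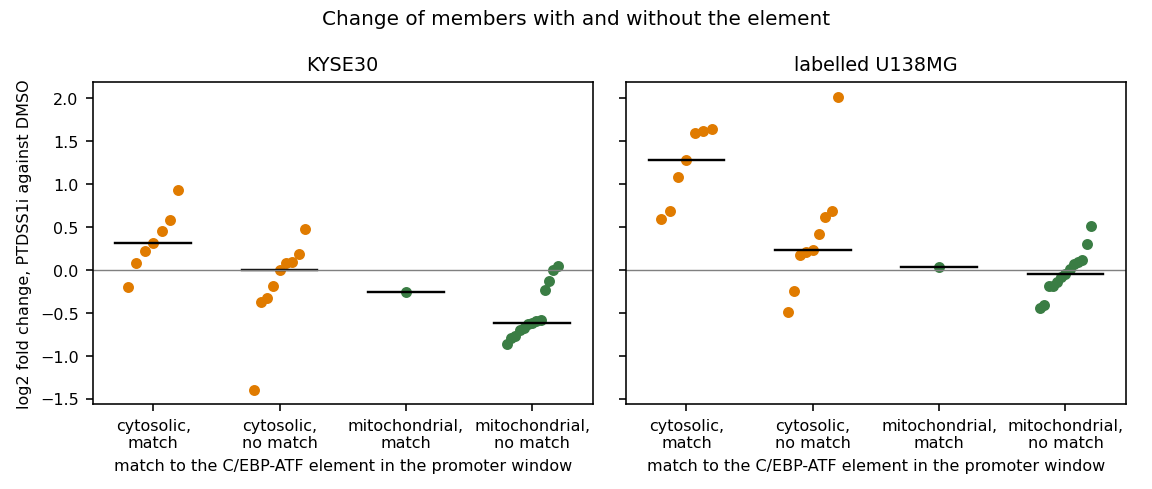
Log2 fold change of the members that have a promoter window, grouped by class and by a match to the C/EBP-ATF element (each point a gene, the black bar the median), in KYSE30 on the left and the libraries labelled U138MG on the right. Cytosolic genes with a match have medians of 0.32 and 1.28, those without -0.0023 and 0.23, and the single high point without a match on the right is WARS1 at 2.02.

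The 7 members of the multisynthetase complex were set beside the other 12 cytosolic members. Of the 7, 6 were called higher in the libraries labelled U138MG and QARS1 lower, with a median log2 fold change of 0.42, and 11 of the other 12 were called higher, with a median of 0.68, where 33.9% of all tested genes were called higher and 33.6% lower. In KYSE30 1 of the 7 was called higher and 3 lower, and 6 and 4 of the other 12, where the shares of all tested genes were 30.1% and 32%. The scaffold genes went in opposite directions in the lines. AIMP1, AIMP2 and EEF1E1 were all lower in KYSE30 (3 of 3, log2 fold changes -0.22, -0.68 and -0.67) and all higher in the other line (0.18, 0.62 and 0.87). The interaction was called for all 3, more positive in the libraries labelled U138MG, as for 25.5% of all genes (49.9% in either direction). EEF1E1 was at 29.7, 26.8 and 31.1 normalized CPM in the DMSO libraries and 52.6, 51.5 and 56.1 in the PTDSS1i libraries in the libraries labelled U138MG, and shares exons with a read-through gene.

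Counts for the other gene lists are to be read beside the shares of all tested genes. In KYSE30 30.1% were called higher and 32% lower, and in the libraries labelled U138MG 33.9% and 33.6%. These short lists were not tested as sets, and several of their counts lie near those shares. Among the genes that proofread or recycle charged tRNA, 2 of 5 were lower in KYSE30 (DTD2 -0.78, PTRH2 -0.31), and 3 were higher and 2 lower in the libraries labelled U138MG. Of the 4 partners of mitochondrial charging, which make glutaminyl-tRNA by amidation or formylate the initiator, 3 were lower in KYSE30 (GATB -0.41, QRSL1 -0.31) and 1 in the other line (GATB -0.24). Of the 9 mitochondrial translation factors, 5 were lower and 2 higher in KYSE30, with the elongation factor GFM1 at -0.60 and the initiation factor MTIF2 at -0.50, and 4 were lower and 2 higher in the libraries labelled U138MG, with the ribosome recycling factor GFM2 at -0.54 and MTRF1L at 0.23.

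The same shares of all tested genes stand beside the next lists (30.1% higher and 32% lower in KYSE30, 33.9% and 33.6% in the other line). Of the cytosolic elongation factors, which carry charged tRNA to the ribosome, 5 of 6 were tested in KYSE30, 1 was higher (EEF1A1, 0.47) and 1 lower (EEF1B2, -0.39). Of the 6, 2 were higher in the libraries labelled U138MG (EEF1A2 0.59) and 3 lower (EEF1D -0.29). Among the 7 genes for tRNA ends and export, XPOT, the nuclear export receptor of tRNA, was at 174, 176 and 191 normalized CPM in the DMSO libraries and 405, 398 and 407 in the PTDSS1i libraries in the libraries labelled U138MG (log2 fold change 1.16, SE 0.037, edgeR adjusted p = 3.53e-21), and in KYSE30 its log2 fold change of 0.072 was not called. ELAC1, which processes tRNA ends, fell in the libraries labelled U138MG (log2 fold change -1.48, SE 0.21, edgeR adjusted p = 6.01e-07) on low levels of 4.42 ± 0.633 to 1.59 ± 0.354 normalized CPM (SD, n = 3). In KYSE30 5 of these 7 genes were lower, with ELAC1 at -0.57 and ELAC2 at -0.56. Of the sensors of uncharged tRNA, GCN2 itself (EIF2AK4) was lower in both lines (-0.57 and -0.17), IMPACT, which restrains it, was lower in KYSE30 (-0.57), and GCN1, which GCN2 needs for activation, was higher in the libraries labelled U138MG (0.62). The 4 genes for selenocysteine tRNA gave 1 call in KYSE30 (SECISBP2 0.39) and 3 in the other line (EEFSEC -0.54, SECISBP2 0.32, SEPSECS -0.25).

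The library kit does not mark strand and the counting setting is not given in the sources used here, so reads in exons shared by overlapping genes cannot be assigned with certainty. In GENCODE v29 the exons of 19 of the 35 members overlap those of another gene (10 cytosolic, 9 mitochondrial), and for 11 that gene codes for protein. MARS1 overlaps DDIT3, a stress gene on the opposite strand, over 355 of its 7028 exon bases. In the libraries labelled U138MG DDIT3 went from 5.58 ± 0.890 to 57.1 ± 0.688 normalized CPM (SD, n = 3), while MARS1 went from 99.6 ± 8.88 to 310.04 ± 4.25 normalized CPM (SD, n = 3). HARS1 and HARS2, which lie head to head, share 437 bases, SARS2 shares 1492 with AC011455.2 on its own strand, and VARS2 shares 1858 with GTF2H4. Among the members whose exons overlap no other gene, all 9 cytosolic ones were called higher in the libraries labelled U138MG (median 0.61) and 5 of 7 mitochondrial ones lower in KYSE30 (median -0.26).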

How the data were processed

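Poly-A RNA from 12 cultures (4 groups of 3) was measured by RNA-seq. The authors deposited raw read counts per gene, whole numbers without normalization, in 1 table per line. The submitters' processing notes name Trimmomatic, STAR, featureCounts and hg38. Versions, annotation and strand setting are not given in the sources used here, and the paper names no test for these counts. Each sample's group and replicate number were read from its title, and the design text calls the samples biological replicates.

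Genes were kept by filterByExpr (minimum count 10, minimum total 15) with TMM scaling. Within each line, treatment and vehicle were compared by the robust quasi-likelihood test of edgeR 4.0.16 in R 4.3.3, with Benjamini-Hochberg adjustment over all tested genes (16389 in KYSE30, 17666 in the libraries labelled U138MG). A gene was called at an adjusted p under 0.05, and separately past a log2 fold change of 1. An interaction term over 18405 genes tested whether the lines differed. SE is the log2 fold change divided by the root of its F statistic. TMM factors enter the normalized CPM. A level of 0.16 CPM is 3 counts in the smallest library, a limit for counting error only. Replicates differed by more than sampling noise (chi-square divided by its degrees of freedom, 2.29 or more over genes with 20 counts or more). The tests were tried on simulated counts with 200 changed genes, where the changes they missed, most of all for the interaction, lay in genes of low counts.

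Alternatives were library size alone, upper-quartile scaling, DESeq2 1.42.0, no or a stricter low-count filter, the replicate number as a block, an adjusted p under 0.01, 1 joint fit of both lines, omission of each library, no GARS1 and KARS1, and no members with overlapping exons. Exons came from GENCODE v29, which may differ from the annotation used for counting, and promoters from RefSeq (GRCh38.p14). The members and gene lists were chosen with earlier results of these data known. Values per library are given for members beyond a log2 fold change of 1, the 3 largest rises and falls per class and line, members called in opposite directions, and pairs of one amino acid called higher and lower. From other lists, members beyond 1 or else up to 2 with the largest change per line are named, and all called selenocysteine genes. The values of 1 gene from these other lists are not reported here. Figures were drawn with matplotlib 3.10.9.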

Additional observations from a re-analysis of the deposited data

Results flagged for a closer look

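For 27 members the response to PTDSS1i differed between the lines by the interaction of line and treatment (edgeR adjusted p under 0.05). The values that follow are the log2 fold change in the libraries labelled U138MG minus that in KYSE30, as fitted over all 12 libraries. The cytosolic members with a difference of at least 0.9 were WARS1 1.80, FARSB 1.56, VARS1 1.35, AARS1 1.34, MARS1 1.28, IARS1 1.23, YARS1 1.23 and GARS1 0.99. Smaller positive differences were found for LARS1 0.72, KARS1 0.57, NARS1 0.56, EPRS1 0.48, FARSA 0.45, CARS1 0.30, RARS1 0.30 and SARS1 0.17. QARS1 was the one member called with a negative difference, -0.52. Of the mitochondrial members, LARS2 0.91, NARS2 0.85, TARS2 0.85, MARS2 0.72, EARS2 0.67, CARS2 0.58, AARS2 0.56, RARS2 0.47, SARS2 0.37 and IARS2 0.14 had a called difference. Batch and line cannot be told apart in these libraries, and several defining markers of the second line go against its label.

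The differences of SARS1 and IARS2 were the least certain, with edgeR adjusted p = 0.0468 and 0.0489. That of IARS2 was lost without any 1 of 11 libraries (log2 differences from 0.10 to 0.15), and that of SARS1 without any 1 of 9 (0.11 to 0.17). The difference of SARS2 was lost without KYSE30 DMSO replicate 1 (0.34) or 2 (0.33), KYSE30 PTDSS1i replicate 1 (0.30) or 2 (0.35), or U138MG PTDSS1i replicate 1 (0.32). With upper-quartile scaling these 3 and that of CARS1 (0.19) were lost.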

How the results depend on the processing

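Of 105 member results (35 members in each line and in the difference between the lines), 72 kept their direction and their side of the threshold under all alternatives tried, and the cause of the changes was not tested. Scaling mattered most. Against TMM, the median log2 fold change of all tested genes shifted by -0.105 in KYSE30 and -0.147 in the libraries labelled U138MG with library size alone, by -0.0238 and -0.146 with upper-quartile scaling, and by -0.104 for the difference between the lines with upper-quartile scaling. The share of calls that were higher went from 48.5% to 37.8% in KYSE30 and from 50.2% to 37.1% in the other line with library size alone (37.1% there with upper-quartile scaling), and the share of differences that were more positive went from 51.2% to 41.5% with upper-quartile scaling.

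With library size alone the median of the cytosolic members in KYSE30 turned from 0.081 to -0.024 and that of the mitochondrial members became -0.72, while with both lines fitted together the latter was -0.57. Over all tested genes the KYSE30 median was -0.13 with library size alone. In the libraries labelled U138MG the cytosolic median became 0.47 with either scaling, the mitochondrial median -0.21 with either scaling, -0.036 with no filter on low counts and -0.090 with at least 10 counts in every library. Over all tested genes the median there was -0.17 with either scaling. Mitochondrial members called higher there numbered 1 with library size alone, and those called lower numbered 9 with either scaling, 3 with DESeq2, 3 with no filter and 3 at an adjusted p under 0.01. Without members whose exons overlap another gene, which leaves 9 cytosolic and 7 mitochondrial members, KYSE30 had 3 cytosolic members higher and 3 lower, and 5 mitochondrial members lower with a median of -0.26. The libraries labelled U138MG then had 9 cytosolic members higher, 0 lower and 2 past a log2 fold change of 1, and 1 mitochondrial member higher and 1 lower with a median of 0.030. The difference between the lines was then called for 8 cytosolic and 4 mitochondrial members. Fewer members leave smaller counts, and the cause of the shift in the medians was not tested.

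Leaving out each library in turn, the count of cytosolic members called higher past 1 in KYSE30 was 0 to 1 (1 without DMSO replicate 1). In the libraries labelled U138MG the cytosolic median was 0.58 to 0.66, the mitochondrial median -0.098 to -0.037 and the mitochondrial members called lower 3 to 6 (3 without PTDSS1i replicate 2).

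A called member turned its direction only once, TARS2 in the libraries labelled U138MG (-0.025 with library size alone, -0.024 with upper-quartile scaling). Members that were not called turned as follows. With library size alone in KYSE30, EPRS1 was at -0.0086, NARS1 at -0.024, RARS1 at -0.021, PARS2 at -0.054 and RARS2 at -0.10. RARS2 was also at -0.020 with upper-quartile scaling, -0.0075 with no filter and -0.037 to 0.031 without single libraries. QARS1 in KYSE30 was at 0.014 with DESeq2, 0.039 with both lines together and -0.023 to 0.031 without single libraries, and YARS1 at 0.0039, 0.029 and -0.10 to 0.066. In the libraries labelled U138MG, with library size alone and with upper-quartile scaling, CARS2 was at -0.14 and -0.14, LARS2 at -0.053 and -0.051, MARS2 at -0.072 and -0.070, and YARS2 at -0.12 and -0.12. CARS2 was also at -0.016 with at least 10 counts in every library and -0.012 to 0.051 without single libraries, and YARS2 at -0.0054 to 0.099. For the difference between the lines, TARS1 was at -0.018 and VARS2 at -0.039 with upper-quartile scaling, and VARS2 at -0.0081 to 0.14 without single libraries.

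Replicate numbers were not taken to pair the cultures. Deviations of same-numbered libraries correlated at 0.0754, 0.0721 and 0.0204 in KYSE30 and at 0.00881, -0.00288 and 0.0484 in the libraries labelled U138MG, and 6 of 6 and 3 of 6 libraries correlated best with their own number. With the replicate number as a block, 7 cytosolic members were higher and 7 lower in KYSE30 and 12 mitochondrial members lower, and in the other line 17 cytosolic members were higher and 7 mitochondrial members lower in place of 6. The difference between the lines was called for 17 and 11 members under the block.

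Depth set no limit for most members, the smallest count of a member in a library being 13 (VARS2 in KYSE30), where the standard error of 0.28 left a log2 fold change of -0.61 uncalled. Interference from overlapping exons, the lack of strand information and the marker profile of the libraries labelled U138MG limit single values.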
